A study of Sus scrofa with 23 samples.

Results

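The genes described here make the proteins of the mitochondrial ribosome and of the machinery that brings proteins into mitochondria, followed through pre-implantation development of the pig. They were taken by a rule on the symbol. MRPL or MRPS and a digit stand for proteins named after the large or small subunit of the mitochondrial ribosome. TIMM and a digit stand for the translocases of the inner membrane, TOMM and a digit for those of the outer membrane. Families are thus by name, and whether each protein lies in the subunit of its name was not checked. The rule found 76 of the 8603 genes of the deposited table, of which 7371 carried a symbol: 35 MRPL, 23 MRPS, 12 TIMM and 6 TOMM genes. Of the 86 symbols in the Ensembl names that match the rule, 10 were not analysed here. All 76 genes reached 1 FPKM (fragments per kilobase of gene and 1000000 fragments of the library) in at least 3 of the 21 embryo libraries, so none was lost to the filter on low values.

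RNA was measured in 23 libraries, 1 for each condition and each made from a pool. IV-D were Duroc oocytes and embryos from in vivo fertilization, flushed from inseminated Duroc sows, with a single Duroc boar of 1 year as the sire of every embryo. NT-D were embryos cloned from ear fibroblasts of that same boar, NT-LW embryos cloned from ear fibroblasts of a Laiwu boar of 1 year; all cloned embryos shared recipient oocytes that came from the ovaries of slaughtered hybrid sows and had been matured in vitro, and were cultured in PZM3 medium. Libraries covered 1-cell (1C), 2-cell (2C), 4-cell (4C) and 8-cell (8C) embryos, morulae (MO), and blastocysts cut in 2 pieces, the IT piece with inner cell mass and trophectoderm and the TE piece with trophectoderm alone. Oocytes (OC) of IV-D had matured in vivo in Duroc sows of 2 years, and those of NT-D were the in vitro matured recipients. Embryos of both sexes were mixed in the IV-D pools, without sexing, whereas the cloned embryos were male. Each cloned group stood for 1 donor animal. In comparisons of clones with IV-D, nuclear transfer, recipient oocyte, culture and sex cannot be told apart, and for NT-LW the donor's breed is added to these. NT-D and NT-LW differ in the donor animal and its breed.

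The mitochondrial ribosome translates the few proteins encoded in mitochondrial DNA, which are subunits of the respiratory chain and of ATP synthase, while its own proteins are encoded in the nucleus, made in the cytosol and imported. Import runs through the TOM complex of the outer membrane, then through the TIM23 complex for proteins with a presequence or through the TIM22 complex for carrier proteins, which small TIMM chaperones escort across the intermembrane space. Mitochondria of mammalian oocytes and cleaving embryos are inherited from the oocyte and are known to be structurally immature until around the blastocyst.

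Total depth was 14952784 to 22991067 fragments per library, so that a gene at 3 fragments and 1 kb of length stood at 0.13 to 0.20 FPKM. The stage labels were checked with marker genes. Summed FPKM of 7 oocyte markers, among them BMP15, GDF9 and the zona pellucida genes, was 1076 to 4316 in the 11 libraries up to the 4-cell stage, and that of 7 trophectoderm markers was 1260 to 2919 in the 6 blastocyst libraries. NANOG, a marker of the inner cell mass, was at 9.80, 5.00 and 3.76 FPKM in the IT libraries of IV-D, NT-D and NT-LW, and at 0 in all 3 TE libraries. Because levels are shares of a library, a gene can lose share without losing transcripts, and fewer cells of a type and less RNA per cell cannot be told apart.

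The 76 genes lie scattered over the genome. On Sscrofa11.1, 74 have a position on a chromosome, on 19 chromosomes with at most 9 on chromosome 2, and TIMM8A and TIMM17B lie on X. Windows of 300 bases, 250 before and 50 from the start of the RefSeq gene, were read for 72 of them. GCGCATGC, the core of the site of NRF1 (nuclear respiratory factor 1, a known activator of nuclear genes for mitochondrial proteins), stood on either strand in 12 of the 72 windows (16.7%), against 3.06% of 19509 windows of all protein-coding genes and 4.68% of 6811 windows of genes of the table. The ETS letters CCGGAAGT stood in 8 of the 72 windows, against 4.69% of all windows and 7.65% of those of the table, and the YY1 letters AAGATGGC in 6.94% against 2.48% and 3.44%. The E-box CACGTG stood in 9 windows, against 7.93% and 10.2%. For the cAMP response element TGACGTCA the share was 2.78% against 2.26% and 3.26%, and for TATAAA 9.72% against 10.9% and 8.35%, so that both lay between the backgrounds. The median GC content was 59.8% in the 72 windows, 58.7% in all windows and 61.3% in those of the table. These shares are descriptions, since a match of letters is not a bound site.

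Stretches of 150 bases that end just before the start are shown for 4 genes whose matches and values are set side by side below, with matches in capitals. TIMM13 and MRPL35, which rose, and TOMM7, which fell, all hold the NRF1 letters on both strands in an overlapping run of 10 bases, and TOMM7 holds a further match upstream. MRPS11 and MRPL46 are the only pair of the 72 with starts within 10000 bases of each other: they are transcribed away from each other on chromosome 1, with 38 bases between their starts, and the reverse complement of the YY1 letters (capitals) lies upstream of MRPS11 and downstream of the start of MRPL46.
TIMM13 (chr2:76146796-76146945, plus strand): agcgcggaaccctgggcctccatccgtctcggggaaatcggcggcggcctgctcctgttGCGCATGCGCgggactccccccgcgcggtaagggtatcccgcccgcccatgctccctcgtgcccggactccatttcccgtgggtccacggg
MRPL35 (chr3:58575111-58575260, minus strand): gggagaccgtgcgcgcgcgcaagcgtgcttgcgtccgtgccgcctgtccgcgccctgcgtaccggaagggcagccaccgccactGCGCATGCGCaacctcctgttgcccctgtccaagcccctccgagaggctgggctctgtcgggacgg
TOMM7 (chr9:91578992-91579141, minus strand): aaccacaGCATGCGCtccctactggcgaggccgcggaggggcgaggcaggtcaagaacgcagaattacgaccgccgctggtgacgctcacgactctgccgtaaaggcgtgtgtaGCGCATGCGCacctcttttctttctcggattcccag
MRPS11 (chr1:191321952-191322101, minus strand): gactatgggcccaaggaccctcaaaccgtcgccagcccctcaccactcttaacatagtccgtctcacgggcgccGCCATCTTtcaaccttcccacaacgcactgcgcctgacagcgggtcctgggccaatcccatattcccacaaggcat

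The first question was at which stage these genes change. Their median level was 6.19 to 19.3 FPKM in the 11 libraries from oocyte to 4-cell embryo (median of the libraries 9.50) and 45.5 to 90.5 FPKM in the 12 libraries from the 8-cell stage on (median 66.0), so the ranges of the medians did not overlap. The median of all genes of the table stayed at 3.37 to 7.92 FPKM and then 4.64 to 9.25 FPKM. For 42 of the 76 genes every library from the 8-cell stage on was above every earlier one, which is 55.3% against 15.3% of all genes of the table. None of the 76 showed the opposite, which 13.4% of all genes did. Of 50 cytosolic ribosomal protein genes 40 and of 65 genes of the respiratory chain and ATP synthase 49 had the first pattern.

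Taken as 1 set, the 76 genes also became more alike in level. The standard deviation of log2(FPKM + 1) between the 76 genes was 1.92 to 2.38 up to the 4-cell stage (median of the libraries 2.22) and 1.32 to 1.95 from the 8-cell stage on (median 1.54). Between all genes of the table it was 2.25 and 2.37 in the median library. Cytosolic ribosomal protein genes had 2.13 and 2.43, and genes of the respiratory chain and ATP synthase 2.21 and 2.10. Within families the same medians were 2.13 and 1.27 for MRPL, 2.32 and 1.51 for MRPS and 3.09 and 2.39 for TOMM. The TIMM genes did not become more alike (1.84 and 1.88). Early libraries thus held members of the same ribosome at very unlike levels: in the IV-D oocyte MRPS14 stood at 422 FPKM, MRPL11 at 236, MRPL30 at 7.48 and MRPL12 at 0.0534. In the IV-D morula the same genes stood at 47.9, 193, 157 and 27.5 FPKM.

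**Figure D1:**
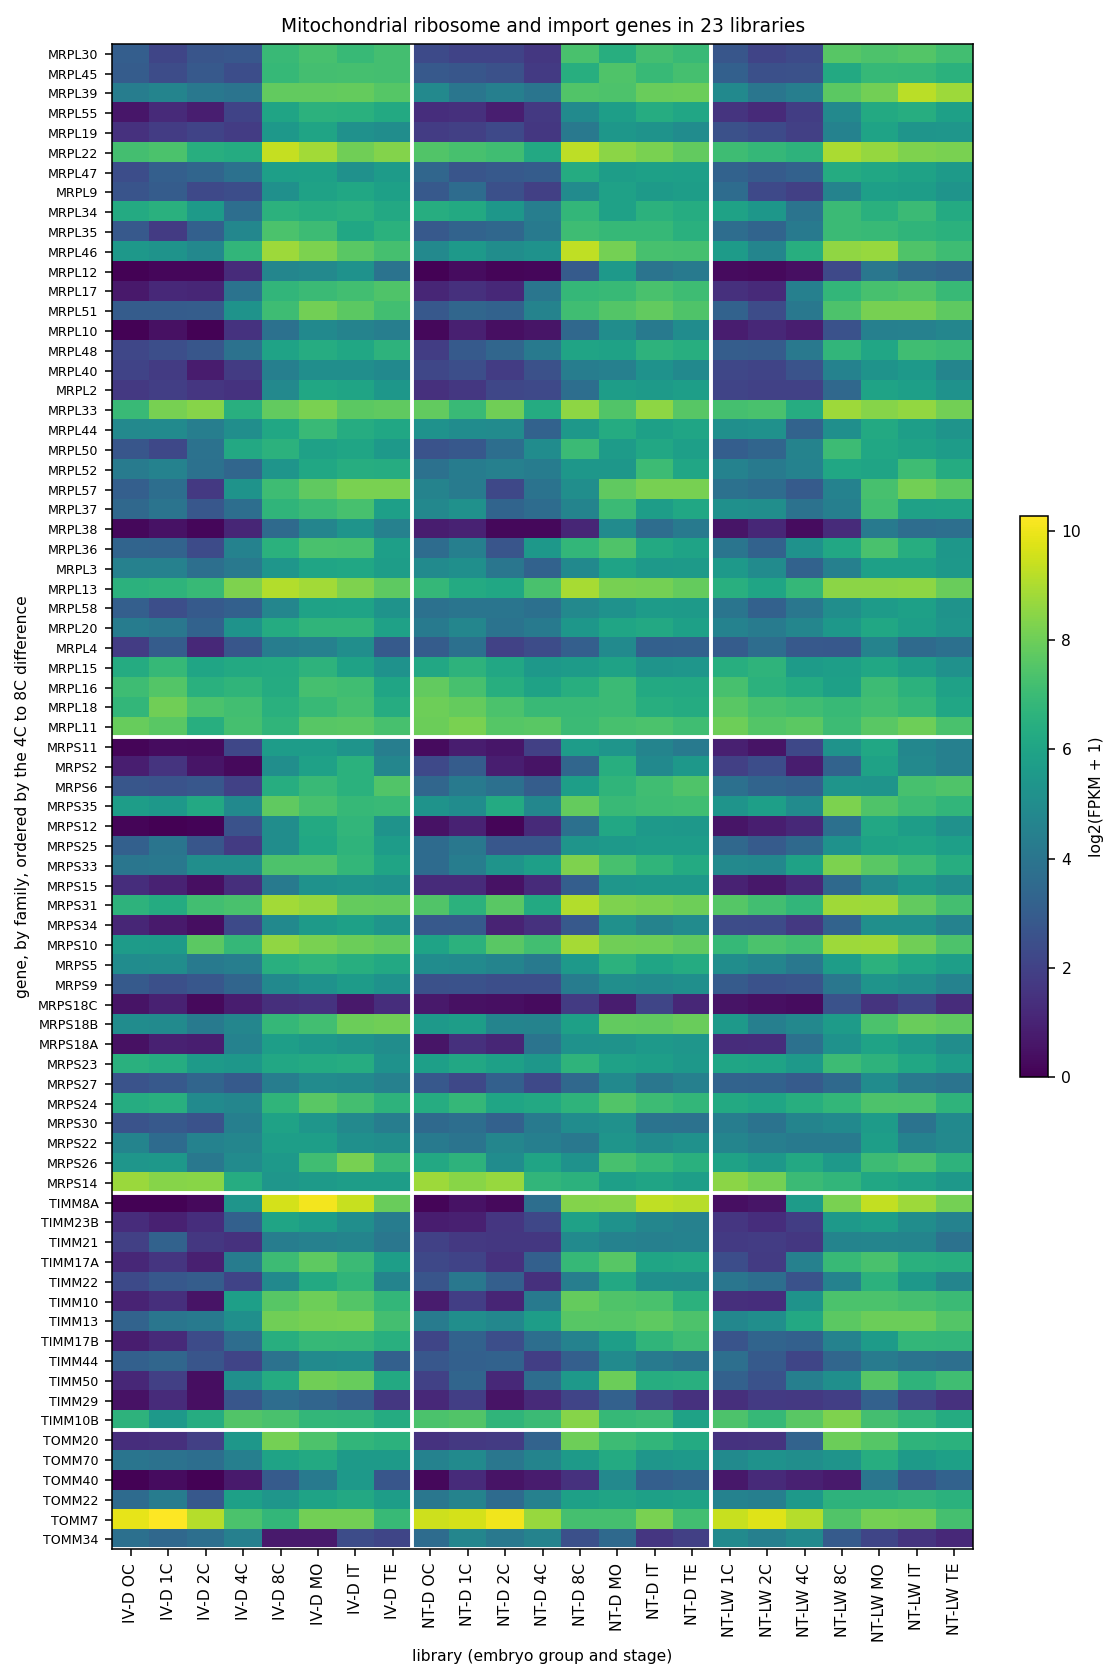
Level of each of the 76 genes, log2(FPKM + 1) as colour, in the 23 libraries (columns, by embryo group and stage), with rows grouped as MRPL, MRPS, TIMM and TOMM and ordered by the difference from 4C to 8C. Most rows turn from dark to light between 4C and 8C in all 3 embryo groups, while TOMM7 and TOMM34 turn the other way and MRPS14 has its highest values up to 2C.

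Each family stood higher from the 8-cell stage on. The median MRPL gene stood at 7.25 to 15.8 FPKM up to the 4-cell stage and at 58.5 to 106 FPKM later, the median MRPS gene at 7.94 to 20.7 and then 38.0 to 86.9 FPKM. The TIMM genes started lowest, at 1.35 to 15.2 FPKM, and reached 40.2 to 122 FPKM. The 6 TOMM genes had medians of 9.04 to 31.6 and then 48.9 to 91.3 FPKM. Between families the late ranges overlapped throughout, and so did the early ones. Within IV-D 24 of the 76 genes had their highest value in the morula and 23 in IT. Within NT-D 28 had it in the morula and 19 at the 8-cell stage, and within NT-LW 35 had it in the morula. The like share of all genes was not counted. The median of all genes was itself highest in the morula within NT-D (9.25 FPKM) and NT-LW (8.25 FPKM). Within IV-D it was 6.67 FPKM in the morula and 6.71 FPKM at 8C.

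**Figure D2:**
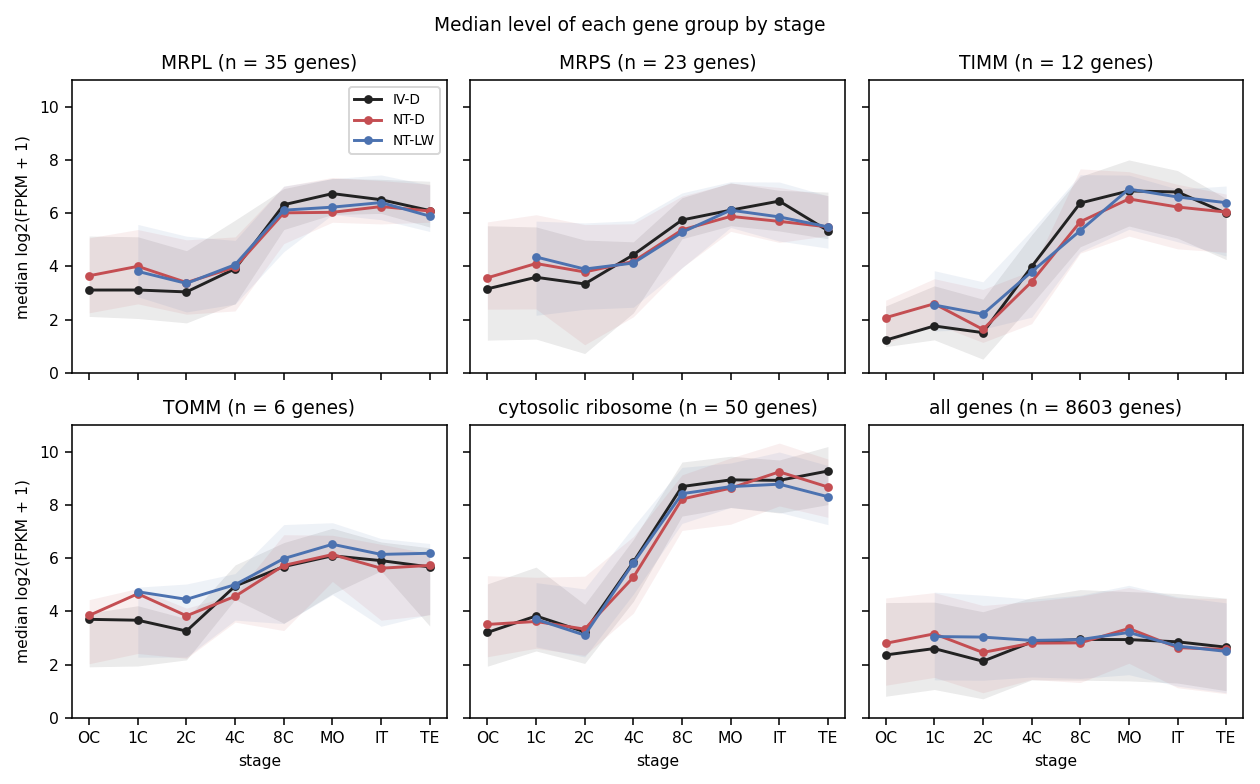
Median log2(FPKM + 1) of each gene group by stage, 1 point per library, with the quartiles over genes shaded and the 3 embryo groups as colours. The 4 mitochondrial families and the cytosolic ribosome step up between 2C and 8C, whereas the median of all 8603 genes stays between 2 and 4.

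Steps between stages were tested with limma on log2(FPKM + 1), as the mean over the 3 embryo groups, which served as the replicates of a step, and Benjamini-Hochberg adjustment ran over all 8476 genes fitted. The replicates are thus embryo groups, not repeated pools of 1 condition. From 1C to 2C none of the 76 genes passed an adjusted p of 0.05 (0.0354% of all genes rose and 0.224% fell). Before adjustment 18 of the 76 were under 0.05, beside 1457 of the 8476 genes fitted.

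From 2C to 4C, 21 of the 76 genes rose and 6 fell, against 16.1% and 8.33% of all genes, so that the share that rose (27.6%) was above the background and the share that fell (7.89%) near it. By family 6 of 12 TIMM and 2 of 6 TOMM genes rose, beside 9 of 35 MRPL and 4 of 23 MRPS genes. TIMM8A, a small chaperone of the intermembrane space, stood at 0.206, 0.186 and 0.50 FPKM in the 2-cell libraries of IV-D, NT-D and NT-LW, from 5 to 15 fragments each, and at 39.8, 12 and 49.3 FPKM at the 4-cell stage. Its difference of 4.53 ± 0.49 (SE; limma adjusted p = 1.45e-06) was the largest rise of the step. TIMM10, another small chaperone, went from 0.468, 1.07 and 1.54 FPKM to 55.1, 18.1 and 37.6 FPKM (4.13 ± 0.34, adjusted p = 6.01e-08). TIMM50, the receptor of the TIM23 complex, went from 0.290, 1.26 and 4.98 FPKM to 34.1, 11.9 and 20.6 FPKM (3.04 ± 0.54, adjusted p = 0.000356). In all 3 genes each 4-cell library was above each 2-cell library. The falls were smaller. MRPS14, a small subunit protein, was at 353, 416 and 278 FPKM and then at 81.2, 108 and 129 FPKM (-1.71 ± 0.29, adjusted p = 0.000189), MRPL33 fell by 1.54 and MRPL34 by 1.47 on the log2 scale, both large subunit proteins. TOMM7, TIMM22 and MRPS35 were the other 3 that fell. Without NT-D 13 rose and 2 fell, and with median-ratio scaling between libraries 15 rose and 11 fell.

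From 4C to 8C, 60 of the 76 genes rose and 2 fell, against 31.7% and 26.8% of all genes. The median difference of the 76 was 1.70 on the log2 scale, that of all genes 0.14. By family 30 of 35 MRPL, 19 of 23 MRPS and 9 of 12 TIMM genes rose and none fell, and of the 6 TOMM genes 2 rose and 2 fell. MRPL30, of the large subunit, had the largest rise: 5.89, 2.20 and 4.01 FPKM in the 4-cell libraries of IV-D, NT-D and NT-LW and 125, 161 and 192 FPKM in the 8-cell libraries (5.04 ± 0.30, adjusted p = 1.87e-09). MRPL45, a large subunit protein that faces the inner membrane, went from 4.44, 2.39 and 4.85 FPKM to 116, 86.3 and 74.2 FPKM (4.27 ± 0.30, adjusted p = 6.7e-09). TOMM20, a receptor of the TOM complex for presequences, went from 42.1, 8.78 and 8.54 FPKM to 281, 255 and 251 FPKM (4.05 ± 0.37, adjusted p = 1.23e-07). For these 3 genes the 8-cell libraries were all above the 4-cell libraries, and MRPL30 and MRPL45 had held low values, under 8 FPKM, in all 11 libraries before.

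The genes that went down at this step were both of the TOMM family. TOMM34, a cytosolic cochaperone of import, was at 21.2, 23.5 and 29.4 FPKM in 4-cell and at 0.660, 4.66 and 6.72 FPKM in 8-cell libraries of IV-D, NT-D and NT-LW (-2.61 ± 0.54, adjusted p = 0.000514). TOMM7, a small subunit of the TOM complex, was at 162, 411 and 554 FPKM and then at 110, 149 and 176 FPKM (-1.22 ± 0.38, adjusted p = 0.0104). The call of TOMM7 was lost without NT-D (adjusted p = 0.110) or without NT-LW (0.112). Both hold the NRF1 letters in their windows, as do TIMM13, a small chaperone and partner of TIMM8A, and MRPL35, of the large subunit. TIMM13 was at 33.8, 51.1 and 71.9 FPKM in the 4-cell libraries and at 266, 194 and 202 FPKM in the 8-cell libraries (2.11 ± 0.32, adjusted p = 2.61e-05). MRPL35 was at 26.3, 17.7 and 17.7 FPKM and then at 164, 135 and 129 FPKM (2.75 ± 0.36, adjusted p = 5.66e-06). The letters thus stood before genes that moved in either direction: of the 12 genes with these letters 9 rose and 2 fell, of the 60 without them 47 rose and none fell. Of the 9 genes with an E-box all 9 rose at this step, with a median of 3.09, against 47 of 63 without (median 1.63). This was not particular to the E-box. All 7 genes with TATAAA (median 2.31), all 5 with the YY1 letters and the 2 with the cAMP response element rose as well. Of the 8 genes with the ETS letters 7 rose.

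The divergent pair on chromosome 1 moved at both steps. MRPL46, of the large subunit, was at 26.8, 32.0 and 24.3 FPKM at 2C, 107, 36.7 and 86.2 at 4C and 435, 627 and 375 FPKM at 8C. MRPS11, of the small subunit, was at 0.221, 0.552 and 0.464, then 3.61, 2.83 and 3.65, then 49.7, 49.9 and 38.0 FPKM. Their differences were 1.31 ± 0.33 and 1.63 ± 0.28 from 2C to 4C and 2.73 ± 0.33 and 3.42 ± 0.28 from 4C to 8C, while the level of MRPL46 was above that of MRPS11 in each of the 9 libraries.

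From 8C to the morula, 20 of the 76 genes rose and 2 fell, against 13.9% and 6.75% of all genes. TOMM40, the channel of the outer membrane, stood at 6.67, 1.73 and 0.679 FPKM in the 8-cell libraries of IV-D, NT-D and NT-LW and at 17.8, 27.7 and 15.5 FPKM in the morulae (2.66 ± 0.59, adjusted p = 0.00404). MRPL38, of the large subunit, went from 10.7, 1.16 and 1.42 FPKM to 24.6, 30.0 and 17.1 FPKM (2.63 ± 0.49, adjusted p = 0.0012), and TIMM50 from 80.0, 44.3 and 34.0 FPKM to 265, 251 and 193 FPKM (2.22 ± 0.54, adjusted p = 0.00776). In each of the 3 the IV-D library was the highest at 8C, and the 3 morulae were all above the 8-cell libraries. MRPL50 (-1.01 ± 0.35, adjusted p = 0.0461) and MRPS35 (-0.71 ± 0.25, adjusted p = 0.0491) fell, near the threshold. The number of calls depended on the groups in the fit: without NT-D none of the 76 passed, without NT-LW 2 did, and without IV-D 30 rose and 3 fell.

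From the morula on few of the 76 genes passed the tests. Between MO and IT 1 gene of the large subunit rose, MRPL52 (0.98 ± 0.30, adjusted p = 0.0375), from 68.5, 42.4 and 63.7 FPKM to 83.3, 130 and 134 FPKM. None fell, where 4.27% of all genes rose and 11.2% fell. Of the 76, 9 were under 0.05 before adjustment, beside 2869 of the 8476 genes fitted. Without IV-D 5 rose and 11 fell, and without NT-D or without NT-LW none passed. Between IT and TE none of the 76 passed in limma (0% of all genes rose and 0.389% fell). Here 8 were under 0.05 before adjustment, beside 556 of the 8476 genes fitted.

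The TE piece was set against the morula without a test, 1 library against 1, by counting differences of log2(FPKM + 1) over 1 where 1 of the libraries reached 1 FPKM. In IV-D 1 of the 76 genes was higher in TE and 22 were lower, or 1.32% and 28.9%, where 12% of all genes were higher and 24.6% lower. In NT-D 1 was higher and 12 were lower (8.66% and 38.5% of all genes), and in NT-LW 2 and 16 (8.79% and 40.3%), fewer than the background in both directions. Of the 12 TIMM genes 8 were lower in IV-D, 5 in NT-D and 4 in NT-LW. TIMM50 went from 265, 251 and 193 FPKM in the morulae of IV-D, NT-D and NT-LW to 75, 89.3 and 138 FPKM in TE, and TIMM8A from 1105, 339 and 648 FPKM to 241, 577 and 277 FPKM, higher in TE in NT-D alone.

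**Figure D3:**
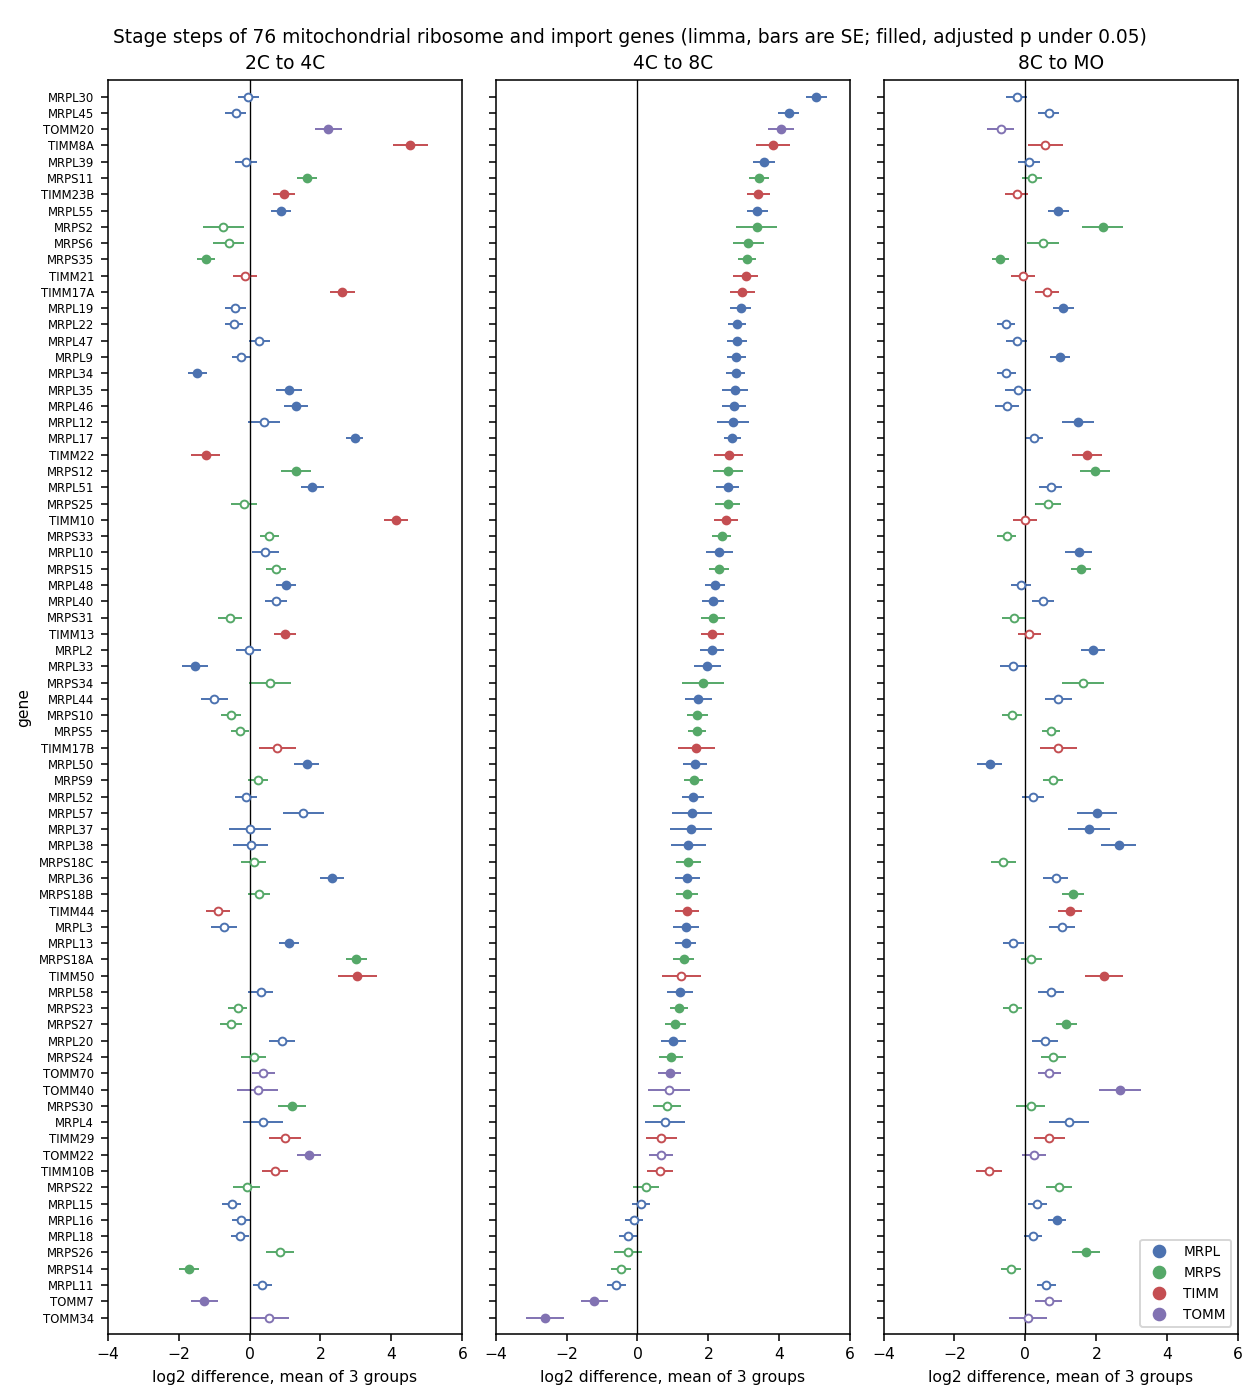
Difference of log2(FPKM + 1) for each of the 76 genes at 3 successive steps, as the mean of the 3 embryo groups with its SE, with filled points where the limma adjusted p is under 0.05 and colours for the families. At the step from 4C to 8C 60 filled points lie to the right of 0 and 2, TOMM7 and TOMM34, to the left.

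In all, 7 genes passed at none of the steps from 2C to MO: MRPL4, MRPL11, MRPL15, MRPL18, MRPS22, TIMM10B and TIMM29. MRPL11 ranged from 85.1 to 292 FPKM up to 4C and from 105 to 255 FPKM later, and MRPL18 from 111 to 265 and then from 66.3 to 150 FPKM, so neither was low before the 8-cell stage. TIMM29, a subunit of the TIM22 complex, was the lowest of the TIMM genes and never exceeded 11.7 FPKM. MRPS18C was the lowest of the MRPS genes, at 0.203 to 4.93 FPKM, and reached 1 FPKM in 10 of the 23 libraries. At the other end stood MRPL22 among the MRPL genes, with 71.8 to 179 FPKM early and 221 to 656 FPKM late, MRPS31 among the MRPS genes (74.2 to 201 and 146 to 538), TIMM8A (up to 1105) and TOMM7 (up to 1237).

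Genes with like names took different courses. TIMM17A and TIMM17B, which form the channel of TIM23, were at 1.23 and 0.775 FPKM in the IV-D oocyte and at 212 and 117 FPKM in the IV-D morula. TIMM17A rose from 2C to 4C (2.62 ± 0.35) and from 4C to 8C (2.95 ± 0.35), TIMM17B from 4C to 8C (1.66 ± 0.53). TIMM10 rose by 4.13 and 2.50 at these steps, while TIMM10B, a subunit found with the TIM22 complex, was at 45.2 to 197 FPKM up to 4C and at 59.5 to 340 FPKM later. Of the MRPS18 proteins, which occupy separate places in the mitochondrial ribosome, MRPS18A rose at 4C already (0.831, 1.13 and 1.54 FPKM to 22.6, 14.4 and 13.2 FPKM, difference 3.01 ± 0.29), and MRPS18B rose from 4C to 8C (1.40 ± 0.31) and from 8C to MO (1.34 ± 0.31).

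The cores of the import complexes ended at unlike levels. In the morulae of IV-D, NT-D and NT-LW the TOM receptors TOMM20 (171, 132 and 188 FPKM), TOMM22 (61.2, 62.2 and 99.1) and TOMM70 (73.6, 77.3 and 83.4) stood above the channel TOMM40 (17.8, 27.7 and 15.5). In the same libraries TIMM50 (265, 251 and 193 FPKM) stood above TIMM44, which tethers the import motor (28.9, 29.2 and 18.5), and above TIMM21 (22.1, 22.4 and 24.7). These are levels per length within a library, and no library had a repeat.

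**Figure D4:**
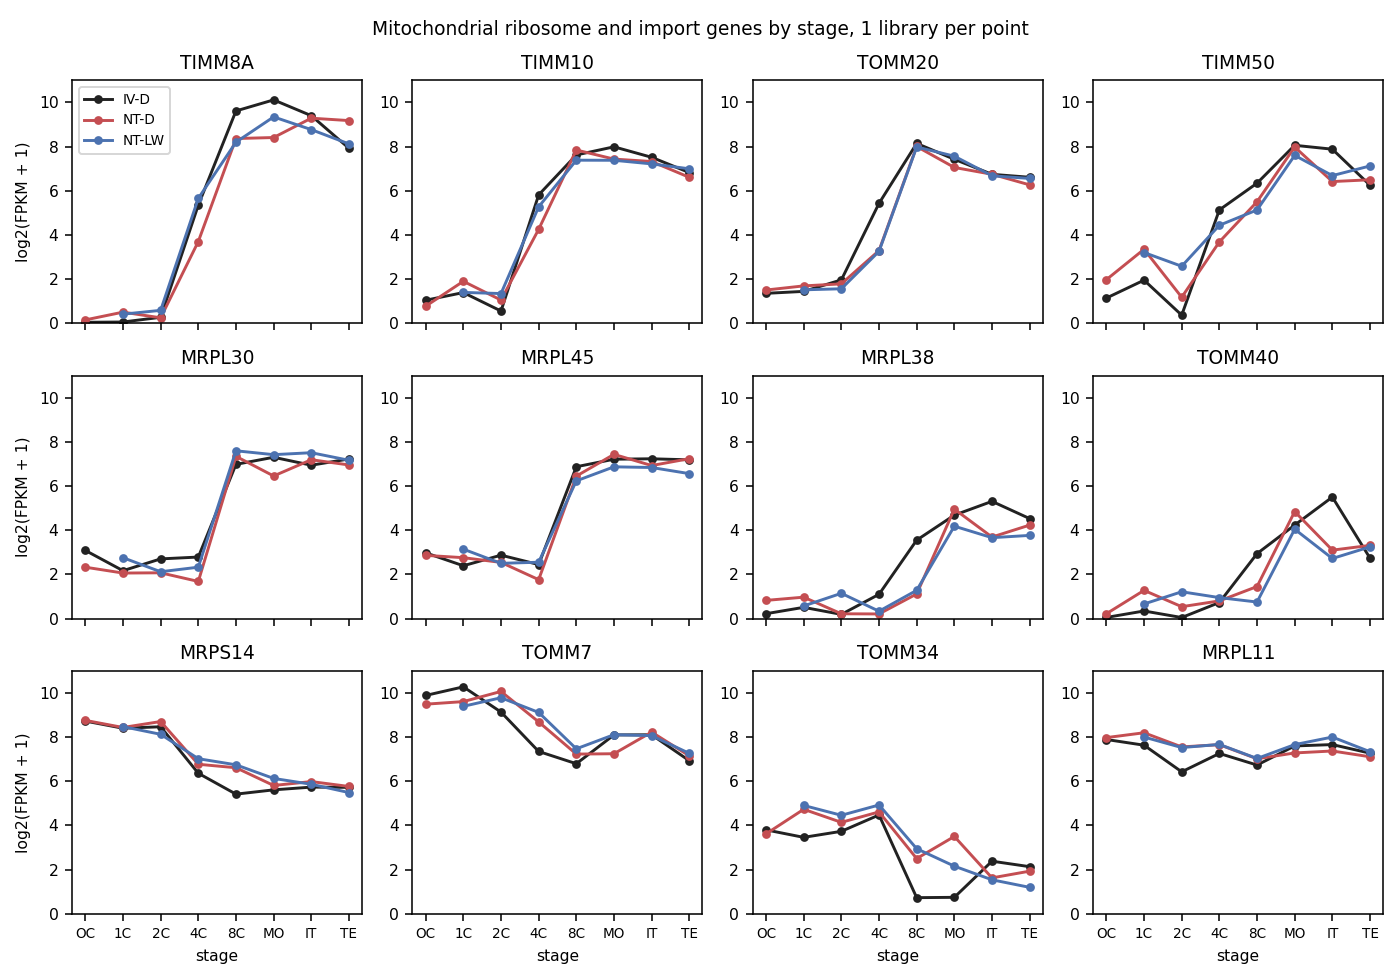
Log2(FPKM + 1) of 12 of the genes by stage, 1 library per point and a line for each embryo group. TIMM8A, TIMM10 and TIMM50 leave the baseline at 4C, MRPL30 and MRPL45 at 8C, MRPL38 and TOMM40 between 4C and MO, while MRPS14, TOMM7 and TOMM34 decline and MRPL11 stays level.

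Other genes of the pathway were read from lists in the same fit. Of subunits of the mitochondrial ribosome with other names 3 of 4 rose from 4C to 8C: DAP3 (2.39 ± 0.27), PTCD3 (1.47 ± 0.34) and CHCHD1 (2.35 ± 0.33). Of the mitochondrial translation factors 7 of 9 rose and none fell, among them TSFM, an elongation factor (3.06 ± 0.39, from a median of 0.857 FPKM early to 38.1 FPKM late), and GFM1, another (2.10 ± 0.26), while the ribosome recycling factor MRRF was at 10.2 FPKM early and 9.06 FPKM late in the median. Of 16 genes of ribosome assembly 9 rose and none fell. Of 14 partners of import 10 rose, among them the motor subunit DNAJC19 (5.00 ± 0.33) and the chaperonin HSPD1 (3.45 ± 0.26), and 1 fell, the inner membrane peptidase subunit IMMP1L (-0.91 ± 0.33, adjusted p = 0.0256). For comparison 45 of 50 cytosolic ribosomal protein genes rose and 1 fell, and 62 of 65 genes of the respiratory chain and ATP synthase rose and none fell. All 7 oocyte markers fell at the same step.

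The second question was whether cloned embryos differ from in vivo embryos in these genes. Over all 7 stages none of the 76 differed between the clones and IV-D in limma (0.248% of all genes were higher and 0.106% lower). Before adjustment 10 of the 76 were under 0.05, beside 1668 of the 8476 genes fitted. The smallest p-values belonged to MRPL13 (-0.43 ± 0.16, adjusted p = 0.171), MRPL12 (-0.66 ± 0.25, adjusted p = 0.175) and MRPS33 (0.37 ± 0.15, adjusted p = 0.195). Between NT-D and NT-LW none differed either (0% of all genes were higher in NT-D and 0.0118% lower). Of the 76, 3 were under 0.05 before adjustment, beside 165 of the 8476 genes fitted. These were TOMM22 (-0.69 ± 0.22), MRPL39 (-0.54 ± 0.20) and MRPL30 (-0.45 ± 0.20), each at an adjusted p of 0.999 and each lower in NT-D. A miss of the threshold does not show that the groups were alike.

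At single stages there was 1 library against 1, hence no test, and a gene was counted where log2(FPKM + 1) differed by more than 1 and 1 of the libraries reached 1 FPKM. NT-D and NT-LW share the IV-D library as their reference. At the 4-cell stage 5 genes were higher and 16 lower in NT-D (9.74% and 13.2% of all genes), and 7 were higher and 9 lower in NT-LW (10.8% and 9.43%). The 5 genes higher in NT-D were 6.85% of the 73 that could be compared and the 16 lower ones 21.9%. In NT-LW these shares were 9.59% and 12.3%, near the background. With libraries rescaled to an equal sum, 6 were higher and 12 lower in NT-LW. At 1C, 15 of 68 members were higher and 2 lower in NT-D (18.5% and 3.44% of all genes). In NT-LW 16 of 67 were higher and 1 lower (20.8% and 4.12%). At 2C, 5 of 64 were higher and 0 lower in NT-D (6.48% and 1.90%). In NT-LW 18 of 70 were higher and 1 lower (34.7% and 3.51%). In TE 1 was higher and 0 lower in NT-D (3.13% and 4.23%), and likewise in NT-LW (6.26% and 10.2%).

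Of the members lower in cloned 4-cell embryos TOMM20 and MRPL44 differed most in NT-D, MRPL57 and TOMM20 in NT-LW. TOMM20 stood at 42.1 FPKM in IV-D (2849 fragments) and at 8.78 and 8.54 FPKM in NT-D and NT-LW (564 and 699 fragments), a difference of -2.14 and -2.17. In the 2-cell libraries it had been at 2.90, 2.44 and 1.95 FPKM, and at 8C it was at 281, 255 and 251 FPKM. MRPL44, of the large subunit, was at 32.4 FPKM in IV-D and at 8.43 and 8.65 FPKM in the clones (-1.82 and -1.79), and MRPL57 at 37.3 against 14.0 and 6.82 FPKM (-1.35 and -2.29). In the other direction stood TOMM7, at 162 FPKM in IV-D and 411 and 554 FPKM in the clones (1.34 and 1.77), and MRPS24, at 25.3 against 72.2 and 86.0 FPKM (1.48 and 1.73).

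A term for the cloned libraries of 1 stage, added to the fit after the values had been seen, tested whether clones and IV-D differ more at that stage than at the others. It was fitted for each of the 7 stages in turn, with adjustment within a stage, and rests on the 1 IV-D library of that stage. At the 4-cell stage 1 of the 76 genes passed, TOMM20, lower by a further -2.05 ± 0.37 in the clones (adjusted p = 0.00956), against 0.165% of all genes higher and 0.696% lower. Markers of other cells also differed between the 4-cell libraries. Summed FPKM of 4 fibroblast markers in the 4-cell libraries was 3.64 in IV-D, 21.8 in NT-D and 22.4 in NT-LW. COL1A2 was at 1.02, 14.5 and 15.1 FPKM, and all 4 markers were above 0 in the 3 libraries. This difference was not particular to 4C, since the sum was 2.13, 14.5 and 16.8 FPKM in the 2-cell libraries. In the 1-cell libraries the sum did not separate the clones from IV-D. There it was 18.7 FPKM in IV-D, above the 12.7 FPKM of NT-LW and below the value of NT-D. HAS2, the 1 cumulus cell marker of the table, was at 2.38, 5.21 and 18.8 FPKM in the 4-cell libraries. It had been at 0, 0.111 and 0.0661 FPKM in the 1-cell and at 0.0294, 0.0497 and 0 FPKM in the 2-cell libraries. The summed oocyte markers at 4C were at 1076, 1887 and 1870 FPKM. Of the oocyte markers KPNA7 went the other way, at 673, 331 and 381 FPKM. Their part in the result was not tested.

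At the 8-cell stage 3 genes were higher and 17 lower in NT-D (10.8% and 17.4% of all genes), and 4 were higher and 21 lower in NT-LW (16.3% and 17.3%). As shares of the 76 genes, 22.4% were lower in NT-D, near the background, and 27.6% in NT-LW, above it. In NT-D 3.95% and in NT-LW 5.26% were higher, below the background. With libraries rescaled to an equal sum 1 was higher and 24 were lower in NT-D. MRPL38 was at 10.7 FPKM in IV-D and 1.16 and 1.42 FPKM in NT-D and NT-LW (-2.44 and -2.27). MRPL37, another large subunit protein, was at 106 FPKM against 23.8 and 20.5 FPKM (-2.11 and -2.31). MRPL57 was at 134 FPKM against 33.1 and 22.4 FPKM (-1.98 and -2.53), and MRPL12, which lies near the site where translation factors bind, at 25 against 6.73 and 3.84 FPKM (-1.75 and -2.43). TOMM40 was at 6.67 FPKM against 1.73 and 0.679 FPKM (-1.49 and -2.19), the last from 15 fragments. Of these 5, each was lower in both cloned libraries than in the IV-D library at 8C. In the morulae of IV-D, NT-D and NT-LW MRPL38 was at 24.6, 30.0 and 17.1 FPKM, MRPL37 at 126, 128 and 141 FPKM and MRPL57 at 216, 215 and 155 FPKM.

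MRPS14 and TOMM34 were higher in the clones at 8C. MRPS14 was at 41.7 FPKM in IV-D and 96.8 and 106 FPKM in NT-D and NT-LW (1.20 and 1.33), TOMM34 at 0.660, 4.66 and 6.72 FPKM (1.77 and 2.22). MRPS14 had fallen from 2C to 4C and TOMM34 fell from 4C to 8C in the mean of the groups. In the test of this stage against the others none of the 76 genes passed, against 0.496% of all genes higher and 2.12% lower. Before adjustment 15 of the 76 were under 0.05, 14 of them lower in clones, where 16.4% of all genes were under 0.05. The smallest adjusted p was that of MRPS22 (-1.56 ± 0.47, adjusted p = 0.0963). Summed FPKM of the 7 oocyte markers at 8C was 23.4 in IV-D, 203 in NT-D and 262 in NT-LW, and all 7 were above 0 in the 3 libraries. Of these markers ZP3 was lower in the clones, at 2.04, 0.909 and 1.68 FPKM. The part of the difference in oocyte markers in the values of the members was not tested.

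In morulae the members were close between groups. In NT-D 1 gene was higher and 2 were lower (18.7% and 3.88% of all genes), and likewise 1 and 2 in NT-LW (11.6% and 4.07%). The higher gene was TOMM34, at 0.677 FPKM in IV-D and 10.3 and 3.46 FPKM in NT-D and NT-LW (2.76 and 1.41). In NT-D the lower genes were TIMM8A, at 1105 against 339 FPKM (-1.70), and TIMM17B, at 117 against 53.8 FPKM (-1.10). In NT-LW they were MRPS6, at 124 against 38.7 FPKM (-1.65), and TIMM17B, at 48.7 FPKM (-1.24). With median-ratio scaling 1 gene was higher and 7 were lower in NT-D. The summed oocyte markers stood at 7.89 FPKM in IV-D, 221 in NT-D and 30.4 in NT-LW, in the order of TOMM34 with IV-D lowest and NT-D highest, and their part in its values was not tested.

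**Figure D5:**
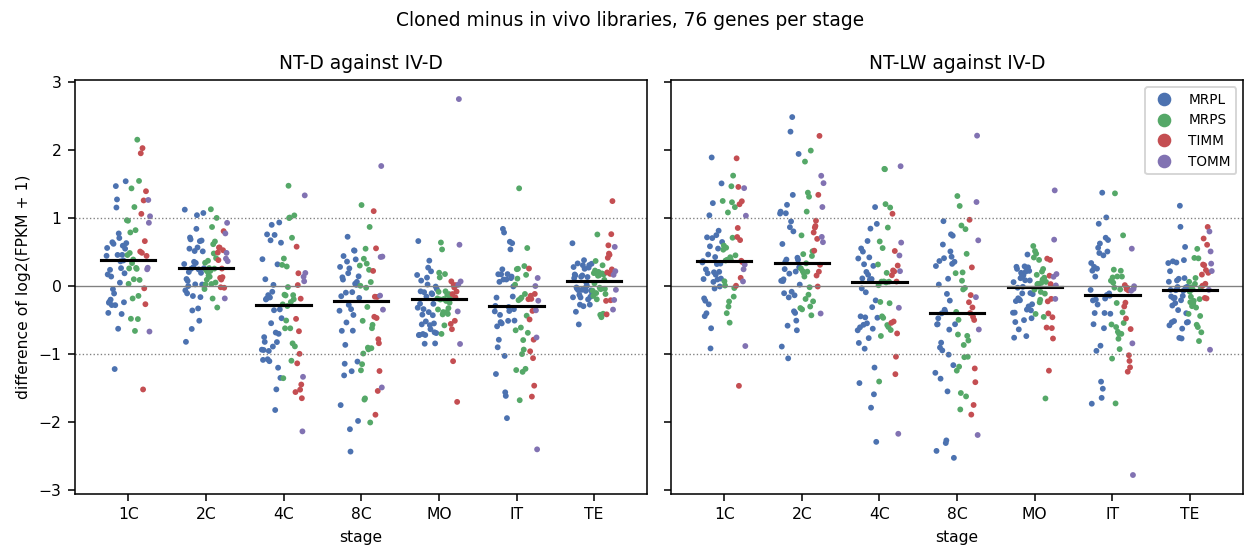
Difference of log2(FPKM + 1) between each cloned library and the IV-D library of the same stage for the 76 genes, coloured by family, with the median as a black line and dotted lines at the limit of 1. At 8C the points reach from 1.77 down to -2.44 in NT-D and from 2.22 down to -2.53 in NT-LW, while at MO most lie within the dotted lines.

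In the IT pieces 1 gene was higher and 13 were lower in NT-D than in IV-D (9.47% and 15.4% of all genes), and 3 were higher and 11 lower in NT-LW (8.7% and 13.7%). As shares of the 76, the lower genes were 17.1% and 14.5%, near the background. TOMM40 was at 44.2 FPKM in the IT piece of IV-D and at 7.55 and 5.58 FPKM in those of NT-D and NT-LW, and at 5.65, 8.93 and 8.48 FPKM in the TE pieces. Of the genes described at 8C, MRPL37 (154, 51.4 and 57.4 FPKM), MRPL38 (38.5, 11.9 and 11.6) and MRPL12 (37.0, 14.5 and 10.5) were again lower in both cloned IT pieces than in that of IV-D, while MRPL57 stood at 291, 290 and 270 FPKM. The IT pieces also differed in markers. Summed FPKM of 3 inner cell mass markers, all above 0, was 63.0 in IV-D, 23.8 in NT-D and 22.3 in NT-LW, and that of the trophectoderm markers 1421, 1260 and 1733. Their part in these values was not tested. By more than 1 on the log2 scale, the IV-D IT library was above the IV-D TE library in 18 of the 76 genes and below it in none. By the same rule 18% of all genes were higher in IT and 9.83% lower. Smaller differences of the members went in both directions. Among the 18 genes MRPS26, of the small subunit, was at 283 FPKM in IT and 122 FPKM in TE of IV-D. It was at 117 and 91.1 FPKM in NT-D and at 165 and 98.2 FPKM in NT-LW.

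Oocytes could be compared between IV-D and the in vitro matured recipients. Of 67 members with 1 FPKM in either library 8 were higher in the recipients and none was lower, or 11.9% and 0%, where 13.3% of all genes were higher and 1.51% lower. MRPL57 was at 7.66 FPKM in IV-D and 23.1 FPKM in the recipients, and TIMM17B at 0.775 FPKM (22 fragments) and 3.42 FPKM (83 fragments).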

How the data were processed

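Per the labels and the methods of the study, SMART-Seq v4 cDNA was sequenced paired-end, aligned to Sscrofa11.1 with HISAT2 2.0.4 and counted per Ensembl gene with HTSeq 0.9.1; the submitters' notes also name DESeq. The authors deposited FPKM values for 8603 genes, without scaling between libraries; the table is named as one of differentially expressed genes, and how these were chosen is not given in the sources used here, so counts are counts within it. The sources used here do not say whether the counting used strand, so reads of overlapping genes and of their antisense partners may not be told apart; TIMM23B stands under the symbol that Ensembl gives.

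The spacing of the FPKM values gave back whole fragments for 8603 of 8603 genes (largest relative deviation 1.17e-09 at 100 or more fragments), which gave depths of 14952784 to 22991067. The count of fragments bounds only counting error. limma 3.58.1 (R 4.3.3, Python 3.11.15) was fitted to log2(FPKM + 1), with 1 as pseudocount, in 21 libraries (the 2 oocyte libraries left out), with stage and embryo group as terms and the intensity trend of eBayes, on 8476 genes at 1 FPKM or more in at least 3 libraries. Fold changes are on this scale, which understates those of low genes. The recovery of fragments, the limma fit of stage and group, the count of differences over 1 and the binomial test were tested on simulated data. The term for the clones of 1 stage and the search of promoter windows were not. Promoter windows came from the NCBI RefSeq genome and annotation of Sscrofa11.1, the build of the authors; protein sequences were not used here. Members and lists were chosen with earlier results of these data known. Named genes are the 3 largest rises and falls of each step, the 3 smallest p-values of each group contrast where none passed, the 2 largest differences each way of the single-stage comparisons, the highest and lowest gene of each family, paralogs and complex cores; MRPL18, MRPL35, MRPL46, MRPS11, MRPS22, MRPS26 and TIMM13 were chosen after their values were seen. Alternatives were pseudocount 0.1, no filter, 2 scalings, no trend, leaving out a group or stage, and an exact binomial test on fragments (adjusted p limit 0.005). The p-values of limma are set against the spread left after stage and embryo group are taken out, with 12 residual degrees of freedom. They do not measure the spread between pools of 1 condition. The term for the clones of 1 stage rests on the 1 IV-D library of that stage.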

Additional observations from a re-analysis of the deposited data

Results flagged for a closer look

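TOMM40, the channel of the outer membrane, went in opposite directions between the morula and the IT piece: it was higher in IT in IV-D, by 1.27 on the log2 scale, and lower in NT-D and NT-LW, with differences of -1.75 and -1.33. The levels were 17.8 and 44.2 FPKM in IV-D, 27.7 and 7.55 FPKM in NT-D and 15.5 and 5.58 FPKM in NT-LW. Summed FPKM of the 3 inner cell mass markers in the IT pieces was 63.0 in IV-D, 23.8 in NT-D and 22.3 in NT-LW, and its part in these values was not tested. With 1 library per condition this difference between the groups was not tested.

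TOMM20, the presequence receptor, differed more between clones and IV-D at the 4-cell stage than at the other stages, by -2.05 (limma adjusted p = 0.00956), with lower values in both cloned libraries.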

How the results depend on the processing

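No pairing by replicate number was possible, because each condition had 1 library and the number 1 that all share only names the library. Embryo group was already a term of the fit, which compared stages within groups. Under other settings 91 counts stayed within 1.5 times the reported one and 11 did not. Leaving out an embryo group moved the number of the 76 genes called from 0 to between 0 and 1 at 1C to 2C, from 27 to between 15 and 25 at 2C to 4C, from 22 to between 0 and 33 at 8C to MO, and from 1 to between 0 and 16 at MO to IT. From 4C to 8C it gave 52 to 60 where 62 were called, and the other scalings 59 and 61. From MO to IT 3 genes were called with libraries rescaled to an equal sum (all lower), 2 with median-ratio scaling and 2 without the trend. NT-D against IV-D in morulae gave 8 genes with median-ratio scaling where 3 were counted. The causes of these moves were not tested. No named value changed sign, and 21 lost the threshold, most of them at 8C to MO with a group left out. TOMM20 at 4C kept its call under each of 5 settings (-1.90 to -2.20, adjusted p 0.00523 to 0.046). Median-ratio scaling moved the median of all genes by over 0.1 at several steps, from 0.14 to -0.07 at 4C to 8C, where the median of the 76 was then 1.39.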

Other observations

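TIMM8A and TIMM17B, the X-linked members, were both lower than in IV-D in NT-D and NT-LW at 8C (-1.25 and -1.41 for TIMM8A, -1.89 in both for TIMM17B). Of the genes of the table on X, 33.0% of 221 were lower in NT-D at 8C and 30.6% of 222 in NT-LW, where 16.5% and 16.0% of autosomal genes were. In morulae 16.7% of 233 and 11.2% of 214 X-linked genes were lower, beside 2.63% and 3.23% of autosomal genes. The cloned embryos were male, and the IV-D pools mixed embryos of both sexes. The part of sex in these values was not tested.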
